A study of Mus musculus with 7 samples.

Results

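Genes with a Zfp symbol (zinc finger protein) formed the set described here. A probe set was a member if the array annotation gave it 1 symbol made of Zfp and a number, with at most 1 letter and 1 digit after it. This rule selected 252 probe sets of 171 genes among the 22690 probe sets and 12393 named genes of the Affymetrix 430A 2.0 array, and all 171 symbols were current in the RefSeq gene table. RNA of whole FVB embryos at embryonic day 10.5 had been hybridized with 1 embryo on each of 7 arrays. There were 2 diabetes-exposed embryos with a neural tube defect (NTD), 3 diabetes-exposed embryos in which no malformation was identified, and 2 control embryos. For the exposed embryos, females of 7 to 9 weeks had been made diabetic with streptozotocin and had blood glucose above 250 mg/dl, whereas the dam of the controls was untreated. The exposed embryos were littermates of a single dam and the controls of another. The effects of diabetes and of the litter thus cannot be told apart, and all p-values measure the spread between littermates. The values are MAS5 signals, a brightness per probe set on a linear scale. The authors' scaling left all 7 arrays with a trimmed mean of 500.2 (2% left out at either end).

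A zinc finger is a short fold of the protein chain held together by a zinc ion. In the C2H2 type a pair of cysteines and a pair of histidines hold the ion, and tandem arrays of such fingers read DNA or, in some proteins, RNA. Many C2H2 proteins of mammals carry a KRAB domain, which recruits the corepressor Trim28 and silences chromatin, and many of these act on retroelements. The Zfp symbol is wider than this family, since it also covers CCCH proteins that bind AU-rich messenger RNA and single proteins of other kinds, such as the LIM-domain protein Zfp185. The members were therefore ordered by known roles.

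Of the 252 Zfp probe sets, 169 from 120 genes entered the test, which required a signal at or above the 40th percentile of the array (131.5 to 146.4) in 2 or more of the 7 embryos. The other 83 were too dim, 75 of them below that percentile in all 7 embryos, and 51 Zfp genes had no tested probe set. Of the tested members, 125 were at or above the percentile in all 7 embryos. The exposed and control embryos were compared with limma on log2 signals across all 14554 tested probe sets, and those with an adjusted p under 0.05 (Benjamini-Hochberg) were counted as called. Only Zfp385a and Zfp207 were called, both higher in exposed embryos, which is 2 of 169 members where 0.172% of all tested probe sets were called. The Zfp207 probe set reached the 40th percentile only in exposed embryos. The filter thus favoured a higher value in exposed embryos for it, and it adds nothing to this comparison of shares. The RNA was of whole embryos, so that fewer cells of a type and less RNA per cell cannot be told apart.

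The promoters of Zfp207 and Zfp385a are shown because these were the only called members. Each stretch is the 250 bases before a start site listed by RefSeq on build GRCm38.p6 (the C57BL/6J reference, not the FVB strain of the embryos), 5′ to 3′ on the strand of the gene. Capitals mark matches on either strand to the core of the hypoxia response element, ACGTG, or of the antioxidant response element, TGACNNNGC, and the forkhead core GTAAACA had no match in these stretches. Matches of different motifs may share letters. Zfp207 lies on the plus strand (chr11:80383029-80383278), and Zfp385a on the minus strand with 2 start sites (chr15:103340087-103340336 and chr15:103334339-103334588).
Zfp207: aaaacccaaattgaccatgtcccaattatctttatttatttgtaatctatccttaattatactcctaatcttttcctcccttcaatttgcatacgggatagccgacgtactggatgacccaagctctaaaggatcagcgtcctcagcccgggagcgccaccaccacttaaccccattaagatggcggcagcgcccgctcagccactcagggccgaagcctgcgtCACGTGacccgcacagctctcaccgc
Zfp385a, first start site: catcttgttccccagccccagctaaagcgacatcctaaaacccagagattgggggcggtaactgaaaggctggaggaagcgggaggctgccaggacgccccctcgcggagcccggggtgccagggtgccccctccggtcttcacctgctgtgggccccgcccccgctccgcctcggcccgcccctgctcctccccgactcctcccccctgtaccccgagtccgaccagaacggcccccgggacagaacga
Zfp385a, second start site: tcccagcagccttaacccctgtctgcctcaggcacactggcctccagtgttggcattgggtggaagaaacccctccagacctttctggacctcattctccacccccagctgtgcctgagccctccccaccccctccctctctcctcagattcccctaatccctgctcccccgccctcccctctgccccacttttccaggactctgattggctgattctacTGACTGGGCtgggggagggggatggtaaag
The capitals in Zfp207 are a palindrome, so that ACGTG matched on both strands at 1 place. The first Zfp385a stretch held none of these motifs and the second held TGACNNNGC in 1 place. ACGTG was found in 22 of the 96 tested Zfp genes with a promoter in the table, or 22.9%, where 22% of the promoters of all tested genes and 16.6% of all promoters held it. TGACNNNGC was found in 12.5% of the tested Zfp genes, against 11.7% of all tested genes and 10.1% of all promoters. GTAAACA was found in 1.04% of them, against 1.96% of all tested genes and 3.09% of all promoters. The shares of ACGTG and TGACNNNGC are thus close to those of all tested genes, while GTAAACA was found in only 1 tested Zfp gene. A match in letters is not evidence of a binding site. The median GC content of the tested Zfp promoters was 57%, against 60.4% for all tested genes.

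Zfp385a, a zinc finger protein that binds RNA and also p53, had signals of 564 and 683 in the exposed embryos with NTD, 658, 594 and 782 in those without NTD, and 304 and 317 in the controls. All 5 exposed embryos lay above both controls. The mean signal of the exposed embryos was 656 ± 85.1 (SD, n = 5) and that of the controls 310 ± 9.54 (SD, n = 2), a log2 fold change of 1.07 with a standard error of 0.15 (limma adjusted p = 0.0329). This was the only tested probe set of the Zfp385 family. The probe set stayed called without exposed embryo 1 without NTD (adjusted p = 0.0403), but not without either control (adjusted p = 0.237 without control 1 and 0.251 without control 2), without exposed embryo 2 with NTD (0.0688) or without exposed embryo 3 without NTD (0.0632).

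Zfp207, known as BuGZ, is a microtubule-associated protein that stabilizes the checkpoint protein Bub3 and acts in chromosome alignment at mitosis. One of its probe sets, 1434752_at, had signals of 385 and 306 in exposed embryos with NTD, 245, 224 and 213 in exposed embryos without NTD, and 91.1 and 47.3 in the controls. The exposed embryos did not overlap the controls, and both embryos with NTD were above the 3 without. The exposed embryos had a mean signal of 275 ± 71.3 (SD, n = 5) and the controls of 69.2 ± 31 (SD, n = 2), a log2 fold change of 2.03 with a standard error of 0.30 (limma adjusted p = 0.0329). Both controls were below the 40th percentile of their arrays, and control 2 was below its 20th percentile, 48.1. The size of the fold thus rests on dim values. It stayed called without exposed embryo 1 with NTD (adjusted p = 0.04) or exposed embryo 1 without NTD (0.0454), and was not called when any other single embryo was left out (adjusted p = 0.0523 to 0.3).

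The 4 tested probe sets of Zfp207 did not move together. Probe set 1438714_at had signals of 4439 and 3444 in exposed embryos with NTD, 3290, 3772 and 3255 in those without NTD, and 2200 and 2357 in the controls. These groups did not overlap either, but the log2 fold change was 0.67 (limma adjusted p = 0.0698), so that it was not called. Probe set 1455092_at had a log2 fold change of 0.42, and its signals in exposed embryos, 284 to 513, overlapped those of the controls, 415 and 236. Probe set 1423545_a_at had the opposite sign, with a log2 fold change of -0.41, and signals of 1729 to 2978 in exposed embryos and 3202 and 2839 in controls. Between the highest and the lowest of these log2 fold changes lay 2.44, the only range above 1 among the 38 Zfp genes with several tested probe sets. The transcripts that each probe set reads were not compared here.

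The list of mitosis, splicing and RNA-binding proteins of the C2H2 type, with Zfp207 among them, held 18 tested probe sets of 7 genes and the 1 call of Zfp207. At an unadjusted p under 0.05, 2 were higher (11.1%), both of Zfp207, and 3 lower (16.7%), 1 of Zfp207 and 2 of Zfp106, where 7.63% of all tested probe sets were higher and 8.52% lower. The higher ones include the called Zfp207 probe set, which entered the test only through exposed embryos and adds nothing to the comparison of shares. The median log2 fold change of the list was 0.02. Zfp106, an RNA-binding protein needed by motor neurons and muscle, had signals of 459 and 458 in exposed embryos with NTD, 325, 441 and 363 in those without NTD, and 679 and 734 in the controls. Every exposed embryo was below both controls, with a log2 fold change of -0.80 and a standard error of 0.17 (limma adjusted p = 0.0785). The other tested probe sets of Zfp106 had -0.58 and 0.01. Zfp638, which takes part in splicing during adipocyte differentiation, had log2 fold changes of -0.27 and -0.32. Zfp346, which binds double-stranded RNA, had 0.40 and 0.08. Zfp318, a regulator of alternative processing of immunoglobulin transcripts in B cells, had -0.33, 0.16, 0.38 and 0.50 at its 4 probe sets, none of them at an unadjusted p under 0.05.

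**Figure D1:**
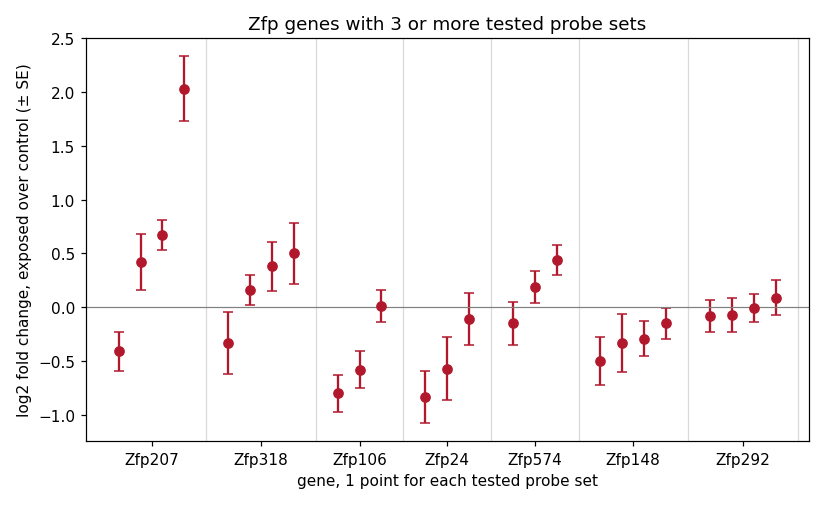
Log2 fold change of exposed over control embryos (5 against 2) for each tested probe set of the 7 Zfp genes with 3 or more of them, with bars of 1 standard error from limma and the probe sets of a gene in rising order. The points of Zfp207 run from -0.41 to 2.03, those of Zfp106 from -0.80 to 0.01, while the 4 points of Zfp292 all lie near 0.

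The tandem CCCH proteins Zfp36 (tristetraprolin), Zfp36l1 and Zfp36l2 bind AU-rich elements and hasten the decay of the messenger RNA. Their 5 tested probe sets had a median log2 fold change of -0.10, and none was at an unadjusted p under 0.05. Zfp36 had signals of 140 and 164 in exposed embryos with NTD, 183, 175 and 165 in those without NTD, and 143 and 170 in the controls. The groups overlapped, with a log2 fold change of 0.08 ± 0.20 (SE). Zfp36l1 had log2 fold changes of -0.10 and -0.01, and Zfp36l2 of -0.26 and -0.49. The second value of Zfp36l2 rests on a single dim reading, 21.9 in exposed embryo 3 without NTD, where the other exposed embryos had 157 to 182 and the controls 134 and 179. The CCR4-NOT and decapping genes, through which these proteins act, had 28 tested probe sets, none called, of which 1 was higher (3.57%) and 7 lower (25%) at an unadjusted p under 0.05, against 7.63% and 8.52% of all tested probe sets, with a median of -0.14. The deadenylase subunits Cnot7 and Cnot8 and the decapping factor Dcp1a had log2 fold changes of -0.85, -0.48 and -0.79 at the probe sets of smallest p (limma adjusted p = 0.0698, 0.176 and 0.193). The Dcp1a probe set reached the 40th percentile only in the controls. The other tested probe sets had -0.72 and -0.14 for Cnot7, -0.13 for Cnot8 and -0.14 for Dcp1a.

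Regulators of stem cells, imprints and retroelements had 8 tested probe sets and no call. At an unadjusted p under 0.05, 1 was higher (12.5%, against 7.63% of all tested probe sets) and 2 lower (25%, against 8.52%), both of them of Zfp445. Zfp296, a protein of pluripotent cells, had signals of 173 and 213 in exposed embryos with NTD, 202, 124 and 212 in those without NTD, and 81.8 and 112 in the controls. The exposed embryos were all above the controls, exposed embryo 2 without NTD only narrowly, with a log2 fold change of 0.93 ± 0.27 (SE; limma adjusted p = 0.149). Both controls were below the 40th percentile of their arrays, so that this probe set also entered the test only through the exposed embryos. Zfp445, a KRAB protein that maintains methylation at imprinted regions, had signals of 808 and 932 in exposed embryos with NTD, 822, 776 and 950 in those without NTD, and 1136 and 1226 in the controls. All exposed embryos were below the controls. Its log2 fold change was -0.47 (limma adjusted p = 0.138), and -0.44 at its second probe set. Zfp57, which acts with Zfp445 in imprinting, was too dim to be tested, with signals of 23.3 to 102 in exposed embryos and 17.2 and 12.1 in controls. Zfp281 and Zfp322a, both known from embryonic stem cells, had log2 fold changes of -0.26 and -0.30 at the probe sets of smallest p (limma adjusted p = 0.328 and 0.497), and the other tested Zfp281 probe set had 0.10.

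Zfp genes of neural, mesenchymal and hematopoietic development had no call. Of their 16 tested probe sets from 7 genes, 14 (87.5%) had a log2 fold change below 0, against 49.9% of all tested probe sets and 58.6% of all tested members. The median was -0.19. Probe sets of the same gene are counted separately here, and those of Zfp292 had only -0.08 to 0.09. At an unadjusted p under 0.05, 3 were lower (18.8%) and none higher, against 8.52% and 7.63% of all tested probe sets. Zfp24, a SCAN-domain protein required for myelination, had signals of 248 and 158 in exposed embryos with NTD, 134, 162 and 159 in those without NTD, and 296 and 303 in the controls. All exposed embryos were below the controls, with exposed embryo 1 with NTD nearest to them, and the log2 fold change was -0.83 ± 0.24 (SE; limma adjusted p = 0.139). Its other tested probe sets had -0.57 and -0.11, with groups that overlapped. Zfp148, which binds GC-rich promoters, had -0.50 at the probe set of smallest p and -0.33, -0.29 and -0.15 at the others. Zfp503, a repressor known from the developing striatum, had signals of 513 and 490 in exposed embryos with NTD, 532, 498 and 478 in those without NTD, and 587 and 656 in the controls at 1423836_at. The groups did not overlap, with a log2 fold change of -0.31 ± 0.12 (SE; limma adjusted p = 0.266). Zfp521, a partner of early B-cell factors, had -0.22, and Zfp423, its closest relative, 0.19 (limma adjusted p = 0.421 and 0.575).

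The proteins that act on ubiquitin and ribosomes had small values and no call. Zfp598, a ubiquitin ligase of collided ribosomes, had a log2 fold change of 0.08 ± 0.15, Zfp622, a maturation factor of the large ribosomal subunit, 0.23 ± 0.12, and the ubiquitin ligase Zfp91 -0.04 ± 0.20 (SE). This Zfp622 value comes from a probe set with the suffix _x_at, which may read more than 1 gene. The other tested probe sets had 0.04 for Zfp622 and 0.02 for Zfp91. None of their 5 tested probe sets was at an unadjusted p under 0.05.

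The remaining genes with the widest differences are C2H2 proteins for which less is known, and several belong to the KRAB family. Zfp60 had signals of 129 and 172 in exposed embryos with NTD, 107, 49.3 and 90.9 in those without NTD, and 229 and 217 in the controls. It was the lowest member with a log2 fold change of -1.14, but the exposed embryos varied widely among themselves, and the standard error was 0.41 (limma adjusted p = 0.217). Zfp62 had signals of 339 and 325 in exposed embryos with NTD, 281, 436 and 297 in those without NTD, and 604 and 582 in the controls at 1451730_at. The groups were well separated there, with a log2 fold change of -0.84 ± 0.18 (SE; limma adjusted p = 0.0786), while the other Zfp62 probe set had -0.09 with overlapping groups. Zfp975, Zfp932 and Zfp61 had log2 fold changes of -0.80, -0.71 and -0.47 (limma adjusted p = 0.188, 0.221 and 0.269), and in each of them all exposed embryos lay below both controls.

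Among the members with higher signals in exposed embryos, Zfp395 had 225 and 221 in those with NTD, 275, 224 and 304 in those without NTD, and 160 and 140 in the controls. In human cells this protein binds the promoter of the huntingtin gene. The exposed embryos did not overlap the controls, and the log2 fold change was 0.72 (limma adjusted p = 0.122). Zfp764, a KRAB protein, had 0.55, Zfp202, known in human cells as a repressor of genes of lipid metabolism, 0.54, Zfp87 0.51 and Zfp574 0.44, at probe sets where all exposed embryos were above both controls (limma adjusted p = 0.182 to 0.263). The other tested probe sets of Zfp574 had -0.15 and 0.19. The Zfp975 probe set reached the 40th percentile only in the controls. The values of Zfp764 and Zfp975, and the larger value of Zfp622, come from probe sets with the suffix _x_at. The value of Zfp445 at the probe set of smallest p comes from an _s_at probe set. Probe sets with these suffixes may read more than 1 gene, so that their assignment to a single gene is uncertain. The 15 tested members with either suffix had the same median log2 fold change, -0.07, as the other 154.

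**Figure D2:**
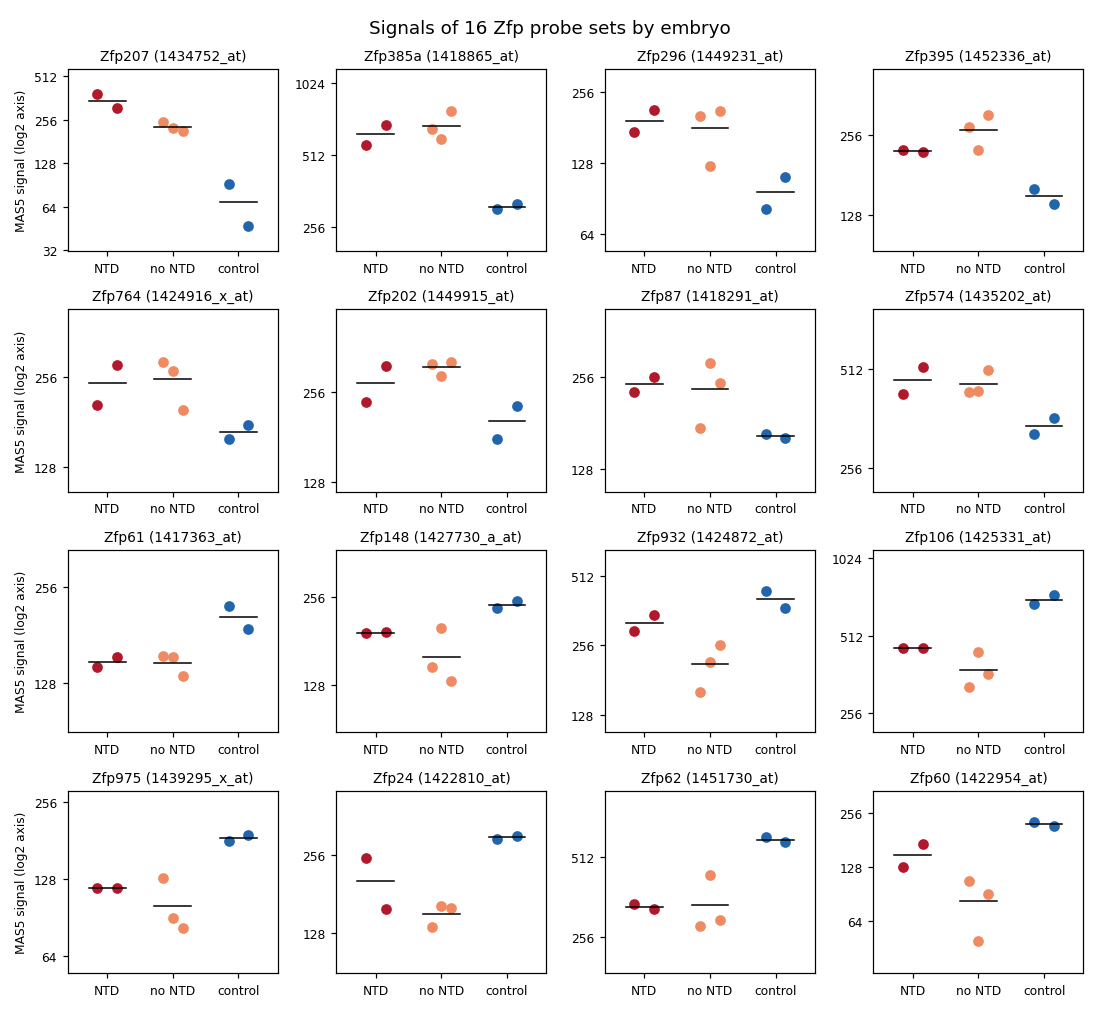
MAS5 signals (log2 axis, its range set for each panel) of the 16 Zfp probe sets with the largest log2 fold changes in either direction among those at an unadjusted p under 0.05 with non-overlapping groups, 1 a gene. Each point is an embryo with NTD (n = 2), without NTD (n = 3) or control (n = 2), and the line is the group's mean. In the first 8 panels all exposed points are higher than both controls and in the last 8 panels lower, and only Zfp207 and Zfp385a were called.

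Over all 169 tested members the log2 fold changes were centred slightly below 0. The median was -0.07, against 0.00 for all tested probe sets, and 99 of the 169 (58.6%) were below 0, where 49.9% of all tested probe sets were. With 1 probe set for each of the 120 genes, the one of the highest mean signal, the median was -0.04. At an unadjusted p under 0.05, 10 members (5.92%) were higher and 15 (8.88%) lower in exposed embryos, against 7.63% and 8.52% of all tested probe sets. All 5 exposed embryos were above both controls in 15 members (8.88%) and below both in 24 (14.2%), against 11.4% and 13.4%. These shares are near those of the array as a whole. With 1 probe set for each gene, 6.67% were higher and 5.83% lower at an unadjusted p under 0.05. All exposed embryos were then above both controls in 10.8% and below both in 11.7%. Of the 169 members, 3 passed 1 log2 unit in either direction (Zfp207, Zfp385a and Zfp60), and 147 (87%) lay within 0.5. Of all 14554 tested probe sets, 244 passed 1 log2 unit and 88.4% lay within 0.5. Zfp207 is among the 3 at the probe set that entered the test only through exposed embryos.

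**Figure D3:**
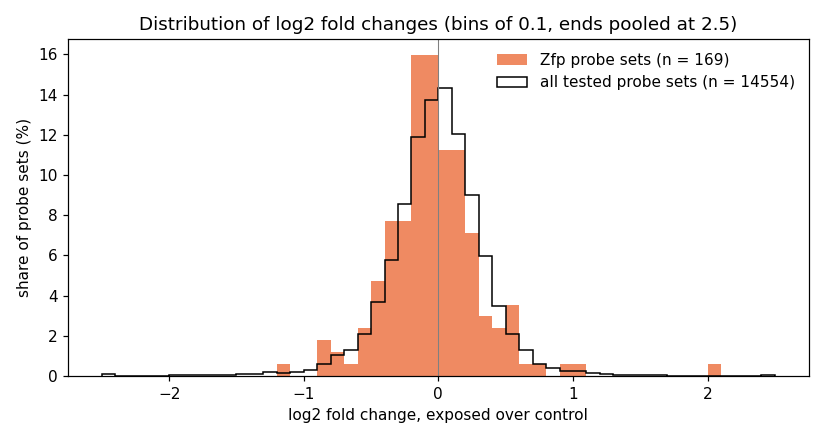
Share of probe sets (%) by log2 fold change of exposed over control embryos, for the 169 tested Zfp probe sets (filled) and all 14554 tested probe sets (line), in bins of 0.1. The Zfp distribution has its median at -0.07 and spans -1.14 to 2.03, with the single member beyond 2 being Zfp207.

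The shift was not the same in each embryo. The median over the tested Zfp probe sets of the log2 signal minus the mean of the controls was -0.010 and -0.011 in the exposed embryos with NTD, and -0.091, -0.022 and -0.036 in those without NTD. Over all tested probe sets the same medians were -0.006, 0.004, 0.012, 0.007 and 0.012. The Zfp median was thus lowest in exposed embryo 1 without NTD, in which 11 members (6.51%) were more than 1 log2 unit below the mean of the controls, against 3.56% of all tested probe sets. Such members numbered 0 in either embryo with NTD, and 2 (1.18%) and 5 (2.96%) in exposed embryos 2 and 3 without NTD, where the shares of all tested probe sets were 0.763% and 1.64% in embryos with NTD and 2.35% and 2.02% in the others. Exposed embryo 1 without NTD also had the widest spread over all tested probe sets, with an SD of 0.57, so that the count is not shown to be particular to Zfp genes. Without that embryo the median log2 fold change of the members was -0.032, and both called probe sets stayed called. In that embryo the summed signals of yolk sac and liver genes stood apart, at 30805, where the other exposed embryos had 1491 to 2635 and the controls 3721 and 3642. These sums cover 15 of the 16 listed genes, of which 6 passed the filter. Not every listed gene was raised in that embryo. Alb had 226 there, against 128 to 243 in the other exposed embryos and 314 and 426 in the controls. The part of such tissue in the Zfp signals was not tested. None of the 4 placenta and decidua genes on the array passed the filter, and all 10 markers of embryo tissues did. The summed signals of the placenta and decidua genes were still highest in exposed embryo 1 without NTD, at 485, against 104 to 214 elsewhere. Prl8a2 had 391 there, above the 40th percentile of that array, and 46.9 to 117 in the other embryos. Of the 14 tested probe sets of the embryo tissue markers none was called. At an unadjusted p under 0.05, 5 were higher in exposed embryos (35.7%, against 7.63% of all tested probe sets). Meox1 of the somites had a log2 fold change of 0.72. Several probe sets of the embryonic globin Hbb-bh1 had 0.39 to 0.47, and the embryonic globin Hba-x had 0.27. Tcf15, also of the somites, had -0.04. The tested probe sets of Sox2, Pax6, Tnnt2, Myh6, Cdh5 and Foxa2 had -0.53 to 0.26, none at an unadjusted p under 0.05. The part of these tissues in the Zfp signals was not tested either.

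**Figure D4:**
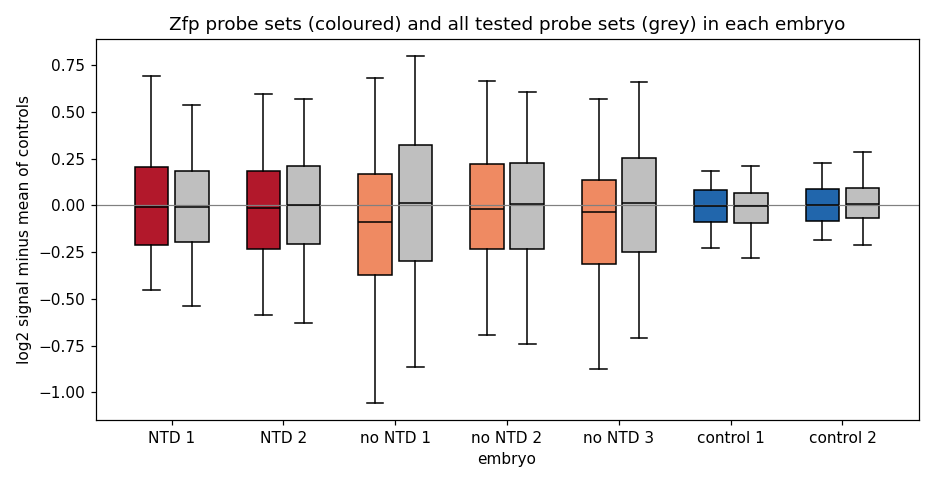
Log2 signal minus the mean of the 2 controls in each embryo, for the 169 tested Zfp probe sets (coloured) and all 14554 tested probe sets (grey). Boxes span the quartiles with the median as a line, and whiskers reach the 5th and 95th percentiles. The Zfp box of exposed embryo 1 without NTD lies lowest, with a median of -0.091, and the controls are narrow because their own mean was subtracted.

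The embryos also differed in sex-linked transcripts. Xist, which silences 1 X chromosome of female cells, measured 1830.2 to 3287 at 1427262_at in 4 of the exposed embryos, but 12.7 in exposed embryo 2 with NTD and 12.7 and 24.1 in the controls, whereas Y-linked Eif2s3y had 0.549 to 2.76 in those 4 embryos, 245 in exposed embryo 2 with NTD and 227 and 203 in the controls. Exposure thus nearly coincides with this pattern, since only 1 exposed embryo, embryo 2 with NTD, shares that of the controls. The effects of exposure and of sex can therefore hardly be told apart, and the part of sex in the Zfp values was not tested. In that single embryo Zfp385a had a signal of 683 and Zfp207 of 306, both above the controls, which does not settle the part of sex. The 3 tested X-linked members did not share a direction, with log2 fold changes of -0.34 for Zfp185, -0.15 for Zfp275 and 0.13 for Zfp280c (limma adjusted p = 0.344, 0.578 and 0.625). Zfp185 had signals of 192 and 178 in exposed embryos with NTD, 202, 179 and 180 in those without NTD, and 228 and 244 in the controls, and exposed embryo 2 with NTD, at 178, was the lowest of all.

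Zfp genes lie in clusters on several mouse chromosomes, and 41 of the 171 genes were on chromosome 7 and 25 on chromosome 17. The 33 tested probe sets on chromosome 7 had a median log2 fold change of 0.08, with 3 higher and 3 lower (9.09% each) at an unadjusted p under 0.05, against 7.63% and 8.52% of all tested probe sets. They included both Zfp60 at -1.14 and Zfp296 at 0.93. The 20 tested probe sets on chromosome 17 had a median of -0.05, with 0 higher and 1 lower.

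Within the exposed litter, embryos with NTD were compared with embryos without NTD in a fit of 3 groups. No member was called, and 0% of all tested probe sets were. At an unadjusted p under 0.05 there were 6 members (3.55%), 5 higher and 1 lower in embryos with NTD, against 3.02% of all tested probe sets. The median over the members was 0.06, against 0.00 over all tested probe sets. Zfp503 at 1423835_at had signals of 686 and 644 in embryos with NTD, 468, 581 and 298 in those without NTD, and 605 and 644 in the controls. Embryos with NTD were above those without, with a log2 fold change of 0.62 ± 0.25 (SE; limma adjusted p = 0.999). At the other tested Zfp503 probe set, 1423836_at, they overlapped, with 513 and 490 in embryos with NTD and 532, 498 and 478 in those without. Zfp932 had signals of 296 and 345 in embryos with NTD, 161, 217 and 256 in those without NTD, and 441 and 371 in the controls. Its signals in embryos with NTD thus lay between those of the other groups. The log2 fold change between embryos with and without NTD was 0.62 for Zfp932, 0.93 for Zfp60, 0.46 for Zfp322a and -0.65 for Zfp704 at 1417849_at, each with an adjusted p of 0.999.

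Set against the same 2 controls, the exposed embryos without NTD had 2 called members and those with NTD none, where 0.295% and 0% of all tested probe sets were called. Zfp385a had a log2 fold change of 1.00 in embryos with NTD (limma adjusted p = 0.234) and 1.12 in embryos without NTD (0.0478). Zfp207, which passed the filter only through exposed embryos, had 2.39 in embryos with NTD (limma adjusted p = 0.117) and 1.79 in embryos without NTD (0.0478). Both calls in embryos without NTD were lost when the embryos with NTD were left out of the fit (limma adjusted p = 0.0572 for Zfp385a and 0.0716 for Zfp207). Embryos without NTD had 24 members (14.2%) at an unadjusted p under 0.05, 10 higher and 14 lower, against 16.9% of all tested probe sets. Embryos with NTD had 12 (7.1%), 7 higher and 5 lower, against 7.7% of all tested probe sets. A call in one group and not in the other does not show that they differ, since the comparison within the litter called nothing and the group with NTD had 1 embryo less.

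The corepressor genes through which KRAB proteins act had no call either. Of 39 tested probe sets of 18 genes, 4 were higher and 4 lower (10.3% each) at an unadjusted p under 0.05, against 7.63% and 8.52% of all tested probe sets, with a median log2 fold change of -0.01. The higher ones include a Cbx1 probe set with 112 and 142 in the controls, not above the 40th percentile of their arrays (131.5 and 142.1). Trim28, which binds the KRAB domain, had signals of 7011 and 6774 in exposed embryos with NTD, 6018, 6212 and 8678 in those without NTD, and 6148 and 5437 in the controls, and the groups overlapped. The histone-binding protein Rbbp4 had a log2 fold change of -0.74 at the probe set of smallest p (limma adjusted p = 0.0659), and of -0.45 and 0.16 at its other tested probe sets. The histone methyltransferase Setdb1 had -1.30 at the probe set of smallest p (limma adjusted p = 0.109) and -0.01 at the other tested one. A list of zinc finger genes with other symbols, 76 tested probe sets of 48 genes, held 1 call in each direction. Sall4, a C2H2 factor of pluripotent cells and limb development, rose by 1.20 on the log2 scale and Mynn, a BTB zinc finger protein, fell by 1.62 on the log2 scale (limma adjusted p = 0.0159 and 0.0375). The second Sall4 probe set had 0.61 (limma adjusted p = 0.124). The Mynn value comes from an _x_at probe set, and the other tested Mynn probe sets, none called, had -0.81, -0.27, -0.11 and 0.14. The median of that list was -0.02, with 10 higher (13.2%) and 9 lower (11.8%) at an unadjusted p under 0.05, against 7.63% and 8.52% of all tested probe sets.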

How the data were processed

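The authors deposited a linear intensity for each probe set, computed with MAS5 from 1 Affymetrix 430A 2.0 array per embryo and scaled to a common trimmed mean. No MAS5 version was given, and its detection calls played no part here. The 64 control probe sets of the 22690 on the array were left out, and 20380 of the rest had 1 gene symbol, 691 several and 1555 none. Another 16 probe sets with a Zfp symbol among several were not members. Signals below 1 were set to 1 and log2 transformed. Probe sets that reached the array's 40th percentile in at least 2 of 7 arrays were fitted with limma 3.58.1 (trend in eBayes) in R 4.3.3 with statmod 1.5.0, as 5 exposed against 2 control embryos and as 3 groups, and p-values were adjusted by Benjamini-Hochberg over all 14554 tested probe sets. The fit was tested on simulated data. The number of arrays limits the precision, and a two-sided exact permutation of 5 against 2 embryos has 21 splits and cannot go below p = 0.0476.

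The members, role lists and tests were chosen with earlier results of these data known. Named were all called probe sets, the 8 of largest log2 fold change in each direction at an unadjusted p under 0.05 with non-overlapping groups, Zfp members of the study's own lists, up to 4 of smallest p per role list, the 5 of smallest p in the comparison of NTD and no NTD, 2 X-linked members and the 3 genes whose probe sets differed most. Zfp57, Zfp423 and Zfp292 were named after their values were seen. For promoters, 138 of 171 genes matched the RefSeq table (GRCm38.p6). Proteins were not used here, so that members were not grouped by number of fingers. Alternatives were quantile normalization, median centring, a floor of 10, an offset of 50, no filter, a 60th percentile filter, no trend, array weights, a replicate block, Welch's test of the methods, exposed embryos without NTD only, and each embryo left out in turn. Other tools were Python 3.11.15, pandas 2.3.3, NumPy 2.4.6 and SciPy 1.17.1.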

Additional observations from a re-analysis of the deposited data

Results flagged for a closer look

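Of the 34 named Zfp probe sets, 2 had an exposed embryo far from the other exposed embryos, by a gap above 0.71 of their range, which chance gives in about 1 in 20 groups. Zfp24 at 1422810_at had a signal of 248 in exposed embryo 1 with NTD, where the other 4 exposed embryos had 134 to 162 and the controls 296 and 303. Zfp318 at 1425347_a_at had 91.9 in exposed embryo 2 with NTD, where the other 4 had 139 to 157 and the controls 88.7 and 102. For Zfp503 at 1423835_at, the mean of the embryos with NTD, 665, was above that of the controls, 624, while all embryos without NTD were below both controls. At its other tested probe set, 1423836_at, all exposed embryos, with and without NTD, were below both controls. That the effects of exposure differ was not tested as such.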

How the results depend on the processing

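The count of called Zfp probe sets, 2, was 5 with array quality weights, which added Zfp106, Zfp62 and a second Zfp207 probe set, 1 with the 60th percentile filter or quantile normalization, and 0 with Welch's test, no filter on low signals, no trend of the spread, only the exposed embryos without NTD, or the replicate block. Leaving out each embryo in turn gave 0 to 2 calls. With a filter at the 60th percentile, 4 members were higher and 9 lower at an unadjusted p under 0.05, and with array weights 23 were lower. With each embryo left out, the number higher ranged from 6 (without control 1) to 13 and the number lower from 6 (without either control) to 17. The median log2 fold change of the members, -0.066, ranged from -0.082 (without exposed embryo 2 with NTD) to -0.032 (without exposed embryo 1 without NTD). Signs turned only for values near 0: with each embryo left out, Zfp36 ranged from -0.05 (without control 1) to 0.20 and Zfp91 from -0.36 to 0.29 (without control 1), with 0.01 without exposed embryo 1 with NTD and 0.04 without exposed embryo 2 without NTD. The cause was not tested. The replicate numbers name separate embryos and no shared source, and deviations of same-numbered embryos correlated between -0.248 and 0.026. Under the replicate block the adjusted p was 0.116 for Zfp385a and 0.101 for Zfp207. Welch's test of the methods gave 29 members unadjusted and 0 after adjustment. The shares over all tested probe sets under these other settings are not given here. A change in the counts of members is thus not shown to be particular to Zfp genes. The 83 dim members have no test.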

Other observations

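Of the 83 Zfp probe sets that were too dim to be tested, 15 had group means more than 2-fold apart, a ratio that carries no test. All values in this paragraph were chosen after they were seen. Zfp57, the imprinting regulator, averaged 49.3 ± 32.2 over the exposed embryos (SD, n = 5) and 14.7 ± 3.55 over the controls (SD, n = 2). The exposed embryos varied among themselves, between 102 in embryo 1 with NTD and 23.3 in embryo 2 without NTD. Zfp287 had means of 8.94 in exposed embryos and 34.2 in controls, and Zfp518b of 40.5 in exposed embryos and 121 in controls. The X-linked Zfp92 had 102 in exposed embryo 1 without NTD and 33.9 to 63.4 in the other exposed embryos, against 28 and 31.2 in the controls.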
